A study of Mus musculus with 2 samples.

Results

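Transcripts of 9 genes of bone morphogenetic protein (BMP) signalling were followed in the cornea and limbus of mice: the ligands Bmp2, Bmp4 and Bmp7, the receptor Bmpr2, the secreted antagonist Grem1, the inhibitory Smad6 and the target genes Id1, Id2 and Id3. They were taken by name from the gene tables of the deposited matrices, 9 of 32285 genes, and all 9 had UMIs in both libraries. Single-cell libraries (10x Genomics) were made from 1 uninjured wild-type (wt) mouse, the control, and from 1 wild-type mouse after NaOH injury, an alkali burn. The corneas with the limbus were digested with liberase and then trypsin. Neither the age of the mice nor the time from injury to collection is given in the sources used here.

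BMP ligands are secreted dimers that bring type I and type II receptors together, and the active receptors phosphorylate SMAD1, SMAD5 and SMAD9. These join SMAD4 in the nucleus and switch on a small set of direct targets, among them the Id genes, whose helix-loop-helix proteins bind other transcription factors of that family and keep them off DNA, and Smad6, which feeds back on the receptors. In endothelium, BMP9 and BMP10 from the blood signal through ALK1 (Acvrl1), endoglin (Eng) and BMPR2, and Id1 is a widely used readout of that activity; in the ocular surface BMP4 and its antagonists have been studied in limbal cells and stroma.

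Promoter sequence of members is shown because Id2 and Bmp4 had lower CPM in the injured than in the uninjured vascular cells, as had Smad6 with an interval that includes no difference, and Grem1 had 31 of its injured UMIs in stroma and 4 in epithelium. RefSeq (GRCm38.p6) gave a promoter for 6 of the 9 genes, and Id1, Bmp2 and Bmp7 are named only. Bases before the start site that no annotated exon of the same strand covers are printed, 5′ to 3′ on the strand of the gene: Bmp4 (chr14:46390670-46390919, minus), Smad6 (chr9:64022060-64022309, minus), Grem1 (chr2:113758649-113758898, minus) and, for Id2, the 89 bases at chr12:25096254-25096342 (minus). Start sites are those of RefSeq, and the Id2 stretch lies inside the GENCODE gene, which spans 25093799 to 25097140. Capitals mark GGCGCC, the core of a BMP response element, and CAGAC or its reverse complement GTCTG, a SMAD4 site.
Bmp4: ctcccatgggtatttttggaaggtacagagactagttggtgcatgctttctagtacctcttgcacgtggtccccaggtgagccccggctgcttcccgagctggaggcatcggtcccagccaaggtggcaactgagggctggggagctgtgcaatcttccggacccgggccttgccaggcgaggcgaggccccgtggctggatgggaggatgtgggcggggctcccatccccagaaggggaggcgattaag
Smad6: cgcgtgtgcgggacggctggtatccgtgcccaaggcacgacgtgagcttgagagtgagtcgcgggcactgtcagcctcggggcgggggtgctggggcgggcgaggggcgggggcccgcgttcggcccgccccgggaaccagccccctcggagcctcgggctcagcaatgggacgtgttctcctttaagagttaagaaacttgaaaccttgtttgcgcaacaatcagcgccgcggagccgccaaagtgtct
Grem1: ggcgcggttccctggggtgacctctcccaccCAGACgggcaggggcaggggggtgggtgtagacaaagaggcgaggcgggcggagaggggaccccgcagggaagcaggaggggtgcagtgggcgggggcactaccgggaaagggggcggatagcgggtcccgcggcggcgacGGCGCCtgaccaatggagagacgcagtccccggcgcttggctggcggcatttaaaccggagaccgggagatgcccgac
Id2: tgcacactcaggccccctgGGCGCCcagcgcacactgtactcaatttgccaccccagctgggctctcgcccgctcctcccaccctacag

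GGCGCC reads the same on both strands and was found in the 250 bases before the RefSeq start of Bmpr2, Grem1 and Id2, 3 of the 6 genes, against 9.59% of all 32851 promoters. The windows of Bmpr2, Id2 and Id3 lie inside the GENCODE bounds of these genes, and those of Bmp4, Grem1 and Smad6 lie before them. CAGAC or GTCTG was found before Grem1 and before Id3, where there are 2 matches, in 2 of the 6 genes against 42.2% of all promoters. Neither was found before Bmp4 or Smad6, and no matches of the 2 motifs overlapped in these windows. These promoters held 62.8% to 72.0% G and C against a mean of 53.2%, and a match describes the letters only.

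The uninjured library held 7490 barcodes and 85457541 UMIs (molecule tags, read as 1 per captured transcript), and the injured library 9399 barcodes and 108863350 UMIs. The 6743 and 8368 cells analysed had medians of 10152 and 10606 UMIs, and 15 barcodes occurred in both libraries. Clusters were named from markers, with the ending -like: epithelial (5602 uninjured and 4598 injured cells), stromal (459 and 803), mural, the contractile cells around vessels (60 and 85), Schwann (53 and 94), vascular endothelial (40 and 206), macrophage or monocyte (18 and 363) and neutrophil (2 and 1020). Clusters 4 (509 uninjured cells, median 1203 UMIs) and 20 (1197 injured cells led by Wfdc18, Clu and Cald1) were left unnamed. Different clusters held most of a class in the libraries: 0, 1, 3, 5, 7 and 11 against 12, 15, 16, 17 and 18 in the epithelium, and 2 against 13 in the stroma. A class ratio can therefore mix level and makeup. Median UMIs per cell were lower in the uninjured than in the injured stromal (5715 and 11998), mural (2099.5 and 6029), vascular (2821 and 6724.5) and Schwann cells (1162 and 2581). Krt12, the keratin of corneal epithelium, was also counted at 1044 to 3188 CPM in the uninjured stromal, mural, vascular, Schwann and macrophage cells and at most 5.27 CPM in the injured ones and the neutrophils. It stood at 19620 and 28.9 CPM in the epithelium, so it says little about free RNA in the injured library. Krt14 stood at 2761 and 8190 CPM in the epithelium. In the other named classes it stood at 163 to 480 CPM uninjured, neutrophils left out, and at 347 to 908 CPM injured. The part of such free RNA in the ratios was not tested.

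Levels are UMIs of a gene per 1000000 UMIs of the class in that library (CPM), with exact 95% Poisson intervals. Ratios are injured over uninjured with exact 95% binomial intervals, and genes counted as higher or lower had a ratio of at least 2-fold. Each group is a single library, so nothing here could be tested or checked against replicates, and the intervals cover counting error only. A gene was measured in a class with at least 20 UMIs over both libraries. Where fewer than 3 UMIs were counted in a class, 3 were used in the ratio, and a gene was not counted as measured where this set its direction.

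**Figure D1:**
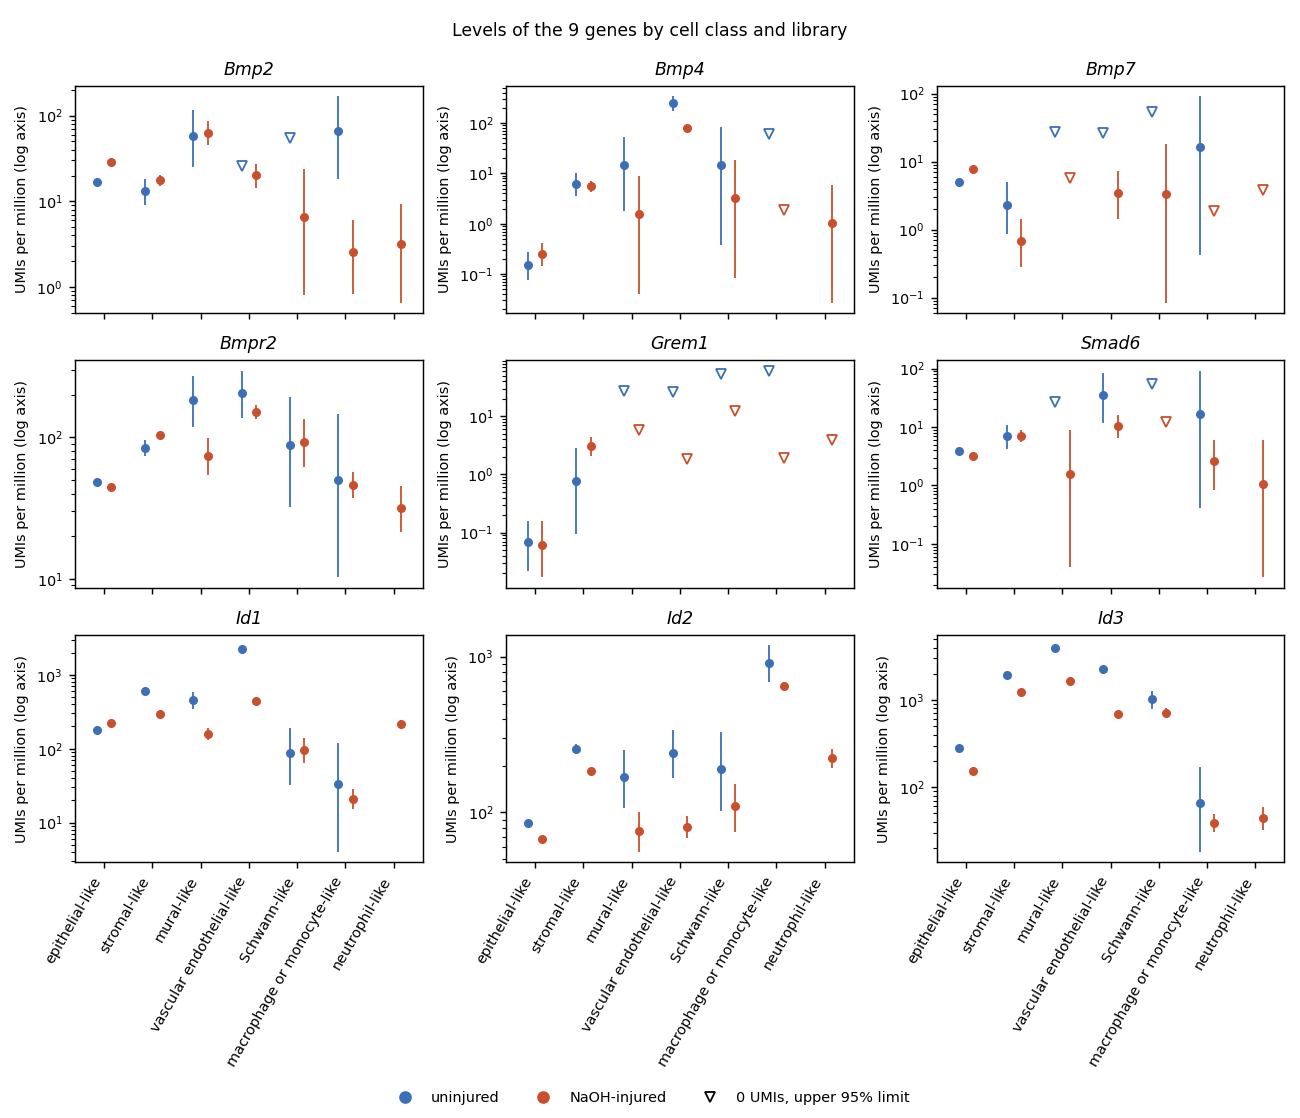
CPM (log axis) of the 9 genes in each cell class of the uninjured (blue) and NaOH-injured (red) library, with 95% Poisson intervals; open triangles stand for 0 UMIs and mark the upper limit of the interval. Bmp4 stands highest in the vascular endothelial-like cells at 248 and 78.3 CPM, Id1 stands there at 2260 and 448 CPM, and Grem1 has UMIs in stroma and a few in epithelium only.

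Among the ligands, Bmp4 stood highest in the vascular cells and Bmp2 stood higher in the mural than in the epithelial cells. Most Bmp7 UMIs lay in the epithelium, as did most UMIs of all genes. Bmp4 (ENSMUSG00000021835; chromosome 14, 46383520 to 46390669, minus strand) encodes a ligand of early embryonic patterning. Its level was 248 CPM (173 to 345; 35 UMIs) in the uninjured and 78.3 CPM (66.5 to 91.6; 156 UMIs) in the injured vascular endothelial-like cells, 3.17-fold lower (2.13 to 4.59). A Bmp4 UMI was found in 35.0% of uninjured and 37.9% of injured vascular cells, or 13.5% and 11.3% after thinning each cell to 1000 UMIs, against 0.196% and 0.326% (unthinned) of the epithelial-like cells, whose median depth was 10975 and 11304.5 UMIs. Of the uninjured cells, 5 of 40 held 60% of the UMIs, and with every cell weighted alike the log2 ratio was -0.48 in place of -1.66.

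In stroma, Bmp4 stood at 6.19 and 5.53 CPM, and it lay in few of the cells. Sub-cluster 3, led by Myoc, Igfbp6, Sfrp2 and Clec3b and shared by both libraries (122 and 82 cells), held it at 30.01 and 32.1 CPM (14 and 15 UMIs). Sub-cluster 0, the uninjured cells led by the keratocyte gene Kera, held 2 UMIs. Of the 56 injured UMIs, 36 lay in sub-cluster 13, led by Cxcl14, Ooep, Igfbp5 and Col3a1, at 16.1 CPM, while sub-clusters 8, 11 and 12 held 2, 1 and 2. Epithelial-like cells held 11 and 16 Bmp4 UMIs in all, at 0.1497 and 0.249 CPM.

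Bmp2 (ENSMUSG00000027358; chromosome 2, 133552159 to 133562885, plus strand), a ligand known from bone and heart development, stood at 58.5 CPM (25.3 to 115; 8 UMIs) and 63.0 CPM (45.04 to 85.8; 40 UMIs) in the mural-like cells, the highest injured class; the uninjured macrophages, at 66.2 CPM, owed theirs to 4 UMIs of 1 cell. The epithelial-like cells held 94.5% and 70.0% of all Bmp2 UMIs. They also held 73501782 of the 77213099 analysed UMIs of all genes uninjured and 64283541 of 96887211 injured. Bmp2 stood there at 16.6 and 28.4 CPM, a log2 ratio of 0.77 (0.67 to 0.88). With cells thinned to 1000 UMIs, which evens out their depth, the log2 ratio was 1.23. The larger injured clusters ranged from 17.3 CPM in cluster 15 to 52.6 CPM in cluster 16, led by Cxcl2, Csf3 and Ereg, and the larger uninjured clusters from 9.66 CPM in the dividing cluster 7 to 22.3 CPM in cluster 5. Stroma stood at 13.2 and 17.6 CPM, with overlapping intervals. The vascular cells held 0 UMIs uninjured, with an upper limit of 26.1 CPM, and 40 injured (20.1 CPM), of which 5 cells held 67.5%.

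Bmp7 (ENSMUSG00000008999; chromosome 2, 172868012 to 172940321, minus strand), a ligand needed for eye and kidney development, had 97.9% of its uninjured and 74.7% of its injured UMIs in the epithelial-like cells. The unnamed clusters of the injured library held another 23.0%. The epithelial-like cells held 73501782 of 77213099 and 64283541 of 96887211 analysed UMIs of all genes, so such shares alone do not set Bmp7 apart. In epithelium it stood at 4.98 CPM (4.48 to 5.52) and 7.69 CPM (7.02 to 8.39), a log2 ratio of 0.63. The injured vascular cells stood at 3.51 CPM (1.41 to 7.24; 7 UMIs), an interval that overlaps the epithelial one. Uninjured cluster 3, led by Apoe and Tppp3, held the highest level among the uninjured epithelial clusters at 12.2 CPM (1 UMI in macrophages gave 16.55 CPM), and the dividing clusters stood at 4.93 CPM uninjured (cluster 7) and 11.5 CPM injured (cluster 12). Mural-like cells held 0 Bmp7 UMIs in both libraries, with upper limits of 26.98 and 5.81 CPM, and stroma held 6 and 7.

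Bmpr2 (ENSMUSG00000067336; chromosome 1, 59763400 to 59879014, plus strand), the type II receptor whose loss in people causes pulmonary arterial hypertension, was found in every class. It stood highest in the vascular cells at 205 CPM (138 to 295) and 151 CPM (135 to 169), and the uninjured interval overlapped that of the mural cells. Mural-like cells stood at 183 CPM (118 to 269.9; 25 UMIs) and 74.1 CPM (54.4 to 98.5; 47 UMIs), 2.47-fold lower (1.46 to 4.09). Stroma stood at 84.0 and 103 CPM and epithelium at 48.2 and 44.3 CPM, log2 ratios of 0.30 and -0.12. The vascular log2 ratio of -0.44 turned to 0.71 with thinned cells. Acvrl1 and Eng, its partners in endothelium, stood at 120 and 69.3 CPM and at 680 and 533 CPM in the vascular cells, whereas Bmpr1a, a type I receptor, had 0 UMIs there in both libraries, with upper limits of 26.1 and 1.85 CPM, against 61.1 and 68.0 CPM in stroma; these 3 genes were chosen after their values were seen.

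Grem1 (ENSMUSG00000074934; chromosome 2, 113746164 to 113758646, minus strand), which encodes the BMP2 and BMP4 antagonist gremlin 1, had the fewest UMIs of the 9 genes. Stroma held 2 UMIs uninjured (0.774 CPM, 0.0937 to 2.80) and 31 injured (3.06 CPM, 2.08 to 4.34), a ratio of 2.64 against the floor of 3 UMIs, whose counting interval ran from 1.01 to 34.1. These 31 UMIs came from 11 of 803 cells, and 5 cells held 80.6% of them. Sub-clusters 12, led by Saa3, Lcn2 and Tnfsf11, and 13 held 19 and 10 of them. Sub-cluster 3, shared by both libraries, held 1 Grem1 UMI in each. Epithelial-like cells held 5 and 4 UMIs, and mural, vascular, Schwann and macrophage-like cells of both libraries and injured neutrophil-like cells none, with upper limits of 1.85 CPM (injured vascular) to 61.05 CPM (uninjured macrophage).

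Among the other secreted antagonists was follistatin, Fst, which binds activins and BMPs. Stroma held it at 9.67 CPM (25 UMIs) uninjured and 455 CPM (4611 UMIs) injured, 47.1-fold higher (31.8 to 72.8), and epithelium at 27.1 and 133 CPM, 4.90-fold higher (4.67 to 5.15). Schwann-like cells held it at 220 and 592 CPM. Within sub-cluster 3 the stromal ratio was smaller, 42.9 against 111 CPM or 2.59-fold (1.52 to 4.59), and the injured sub-cluster 12 reached 870 CPM. Fstl1, a follistatin-like secreted protein, was 2.04-fold higher in stroma (357 and 727 CPM) and 3.56-fold higher in the mural cells (117 and 416 CPM). Bmp3, a ligand that opposes BMP signalling, went the other way in stroma, from 224 to 42.4 CPM, 5.29-fold lower (4.66 to 6.01). It stood at 258 CPM in uninjured sub-cluster 0. Of the injured-only sub-clusters, 8, 12 and 13 held it at 22.4 to 74.0 CPM. Sub-cluster 11, whose markers were nearest to corneal endothelium, held it at 4.91 CPM. Sub-cluster 3 held it at 68.6 and 34.2 CPM, 2.01-fold lower (1.07 to 3.91).

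**Figure D2:**
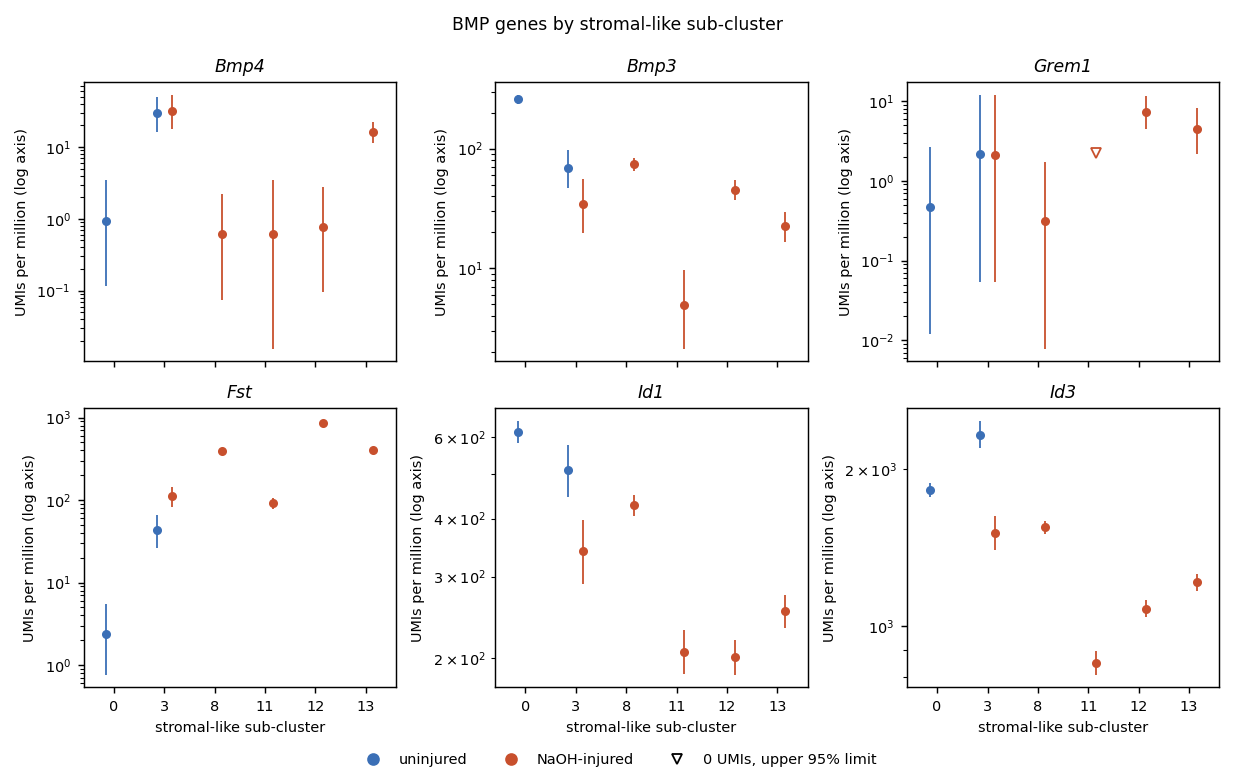
CPM (log axis) of Bmp4, Bmp3, Grem1, Fst, Id1 and Id3 in the sub-clusters of the stromal-like class of the uninjured (blue) and injured (red) library, with 95% Poisson intervals; a library with under 10 cells of a sub-cluster is left out and an open triangle is the upper limit at 0 UMIs. Sub-cluster 3 is the only one with points of both libraries, where Bmp4 lies at 30.01 and 32.1 CPM and Id1 at 508 and 340 CPM.

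Smad6 (ENSMUSG00000036867; chromosome 9, 63953076 to 64022059, minus strand) blocks the BMP receptors from inside the cell. Vascular cells held 5 UMIs uninjured (35.4 CPM, 11.5 to 82.7) and 21 injured (10.5 CPM, 6.52 to 16.1), 3.36-fold lower with an interval from 0.99 to 9.16 that includes no difference. Stroma stood at 6.96 and 7.01 CPM and epithelium at 3.82 and 3.22 CPM. The related inhibitor Smad7 was better counted in the vascular cells, at 503 CPM (71 UMIs) and 129.5 CPM (258 UMIs), 3.89-fold lower (2.94 to 5.07).

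Among the measured members, Id1 in the vessels had the largest ratio of any class. Id1 (ENSMUSG00000042745; chromosome 2, 152736251 to 152737410, plus strand) stood at 2260 CPM (2019 to 2522; 319 UMIs) in the uninjured vascular endothelial-like cells and at 448 CPM (419 to 478; 892 UMIs) in the injured ones, 5.05-fold lower (4.43 to 5.74). Id3 (ENSMUSG00000007872; chromosome 4, 136143497 to 136145755, plus strand) stood there at 2246 CPM (2005 to 2507) and 683 CPM (647 to 720.3), 3.29-fold lower (2.90 to 3.72). Id2 (ENSMUSG00000020644; chromosome 12, 25093799 to 25097140, minus strand) stood at 241 CPM (34 UMIs) and 80.8 CPM (161 UMIs), 2.98-fold lower (1.996 to 4.34). Vascular cells were the highest class for Id1 in both libraries, with no overlap of intervals with stroma, the next. Of the uninjured Id1 UMIs there, 5 cells held 51.4%.

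After thinning, Id1 had a UMI in 70.3% of 37 uninjured and 31.4% of 204 injured vascular cells and Id3 in 78.4% and 43.6%, against 2.91% (Id1) and 4.07% (Id3) of 344 injured macrophage or monocyte-like cells, a class with little of either. Unthinned, the shares of vascular cells were 87.5% and 59.7% for Id1. The thinned log2 ratios were -1.77 for Id1 and -1.41 for Id3 in place of -2.34 and -1.72, and -0.88 in place of -1.58 for Id2, of which 5 uninjured cells held 73.5% of the UMIs. Of the injured vascular cells, 20 of 206 held UMIs of at least 2 of 6 lymphatic endothelial markers, against 0 of 40 uninjured cells. These 20 cells had Id1 at 766 CPM and Bmp4 at 24.6 CPM, and the other 186 had Id1 at 403 CPM (374 to 434) and Bmp4 at 85.8 CPM. In all, 5 of the 6 members measured in the vascular class were at least 2-fold lower and 0 higher, where 12.9% of 6139 genes were lower and 11.0% higher. With thinned cells 2 members were lower and with every cell weighted alike 3, and the share of all genes was not computed for these 2 settings. This class had 40 uninjured cells, and of 19 immediate early genes 17 were lower there too, among them Fos (2387 and 719 CPM) and Egr1 (1020 and 229.9 CPM); their part in the result was not tested.

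**Figure D3:**
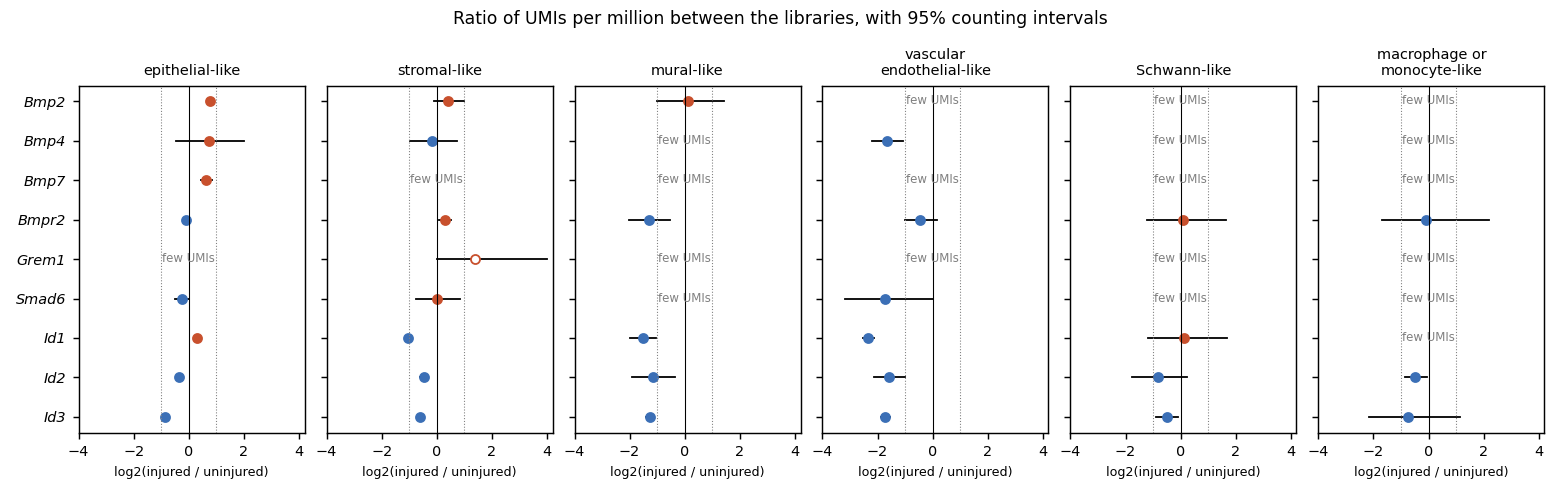
Log2 ratio of CPM, injured over uninjured, of each gene in 6 cell classes, red above 0 and blue below, with 95% binomial counting intervals cut at 4; dotted lines mark 2-fold, an open point uses the floor of 3 UMIs, and few UMIs marks genes that were not measured. In the mural cells 4 of 5 measured genes lie beyond 2-fold on the lower side, against 11.1% of all genes measured there. In the vascular endothelial-like cells 5 of 6 do, against 12.9%. The points of the epithelium lie between -0.88 and 0.77.

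In the mural-like cells the 3 Id genes were lower as well. Id3, at its highest here of all classes, stood at 3913 CPM (3588 to 4259) and 1639 CPM (1541 to 1742), 2.39-fold lower (2.15 to 2.65). Id1 stood at 453 CPM (62 UMIs) and 159 CPM (101 UMIs), 2.85-fold lower (2.04 to 3.95), and Id2 at 168 CPM (23 UMIs) and 75.7 CPM (48 UMIs), 2.22-fold lower (1.29 to 3.73). The log2 ratio of Id2 was -0.30 with thinned cells in place of -1.15. Of 5 members measured, 4 were lower and 0 higher, against 11.1% and 15.4% of 4621 genes. Under thinning and under equal weights 2 were lower, and the share of all genes was not computed there. The mural cells of the libraries lay in separate sub-clusters, 4 (60 uninjured cells, led by Adamts4, Rgs5 and Abcc9) and 10 (84 injured cells, led by Rgs5, Acta2 and Myl9). Acta2, the smooth muscle actin gene, stood at 2742 and 7992 CPM, and 12 of 19 immediate early genes were lower; their part in the Id values was not tested.

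In stroma Id1 stood at 595 CPM (566 to 626) and 292 CPM (281 to 303), 2.04-fold lower (1.92 to 2.17), Id3 at 1916 and 1242 CPM, 1.54-fold lower (1.49 to 1.60), and Id2 at 257 and 184 CPM, 1.40-fold lower (1.28 to 1.53). Id1 was thus 1 of 8 measured members at least 2-fold lower, beside Grem1 as 1 higher, against 9.96% and 11.1% of 11964 genes, and with thinned cells its log2 ratio of -1.03 was -0.71. Sub-cluster 3 held cells of both libraries, though not alike in every marker. Gpha2 stood there at 300.1 and 6728 CPM and the keratocyte marker Kera at 195 and 135 CPM. Gpha2 was listed as a limbal epithelial marker but did not separate the classes here. It stood at 934 and 756 CPM in all stroma and at 178 and 2172 CPM in epithelium. In sub-cluster 3 Id1 stood at 508 CPM (237 UMIs) and 340 CPM (159 UMIs), 1.49-fold lower (1.22 to 1.84). Id3 stood there at 2332 and 1509 CPM, 1.55-fold lower (1.40 to 1.70), and Id2 at 553 and 250 CPM, 2.21-fold lower (1.77 to 2.78). The immediate early genes Fos and Junb were 1.45-fold and 1.65-fold lower in the same sub-cluster, and 4 of 20 such genes were at least 2-fold lower and 1 higher in stroma; their part and that of Gpha2 in the Id values was not tested. The injured sub-clusters ranged from 201 CPM of Id1 in sub-cluster 12 to 427 CPM in sub-cluster 8, all below the 614 CPM of the uninjured sub-cluster 0. Id3 ranged there from 852 CPM in sub-cluster 11, whose markers were nearest to corneal endothelium, to 1547 CPM, against 1825 CPM. The next lowest Id3 level was 1081 CPM in sub-cluster 12.

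Schwann-like cells, the glia of corneal nerves, held Id3 at 1014 CPM (789 to 1283) and 715 CPM (623 to 817), 1.42-fold lower (1.07 to 1.87), and Id1 at 88.2 and 95.95 CPM, with 0 of 4 measured members past 2-fold, against 13.7% of 3129 genes higher and 7.32% lower. Of the immediate early genes 8 of 19 were lower in Schwann-like and 9 of 18 in macrophage or monocyte-like cells, and their part in the Id values was not tested. Id2 was the Id gene of the macrophage or monocyte-like class, and is known for its role in dendritic cell development. It stood there at 910 CPM (686 to 1185) in 18 uninjured cells, 5 of which held 92.7% of the UMIs, and 652 CPM (616 to 689) injured, with Id1 at 33.1 and 21.1 CPM and Id3 at 66.2 and 39.0 CPM. Of 3 members measured 0 passed 2-fold, against 8.53% of 3659 genes higher and 15.1% lower.

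Within the injured macrophage class, sub-cluster 5, led by Pf4, Mrc1 and C1qb, held Id2 at 842 CPM, and sub-cluster 6, dendritic-like by its markers and led by H2-Ab1, H2-Aa and H2-Eb1, held it at 363 CPM. Of the 18 uninjured cells 12 lay in sub-cluster 6, with Id2 at 216 CPM (8 UMIs), a log2 ratio of 0.75 (-0.25 to 1.98) where that of the class was -0.48. Neutrophil-like cells of the injured library held Id1 at 215 CPM (187 to 247; 204 UMIs in 152 cells), Id2 at 223 CPM (194 to 255) and Id3 at 44.3 CPM (31.9 to 59.9). Their Id1 interval lay above the 21.1 CPM (15.1 to 28.6) of the macrophages. The keratin Krt14, which stood at 8190 CPM in the injured epithelium, was counted at 908 CPM in the neutrophils and 525 CPM in the macrophages. After thinning, 18.0% of 256 neutrophils (13.5 to 23.2) and 2.91% of the macrophages (1.40 to 5.28) had an Id1 UMI, which left out the shallower of the 1020 neutrophils.

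In the epithelium Id1 was slightly higher and Id3 lower in the injured library, both short of 2-fold. Id1 stood at 181 CPM (178 to 184) and 221 CPM (218 to 225), a log2 ratio of 0.29 (0.26 to 0.32), Id3 at 279 CPM (275 to 283) and 152 CPM (149 to 155), -0.88 (-0.91 to -0.84), and Id2 at 85.9 and 67.4 CPM, -0.35. Of 8 members measured, 0 were at least 2-fold higher or lower, against 13.3% and 11.6% of 14468 genes, and 8 of 20 immediate early genes were lower. With the unnamed clusters 4 and 20 counted as epithelial, an alternative added after seeing the data, these signs were the same.

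The clusters, formed without the BMP genes, spread more widely than the 2 class values. Cluster 3 (465 uninjured and 12 injured cells), led by Apoe, Tppp3, Id1 itself, Gpc3 and the ligand gene Wnt6, held Id1 at 814 CPM in the uninjured and 2007 CPM in the injured library and Id3 at 585 and 707 CPM, and the 12 injured cells gave 227 Id1 UMIs. Cluster 15 (37 and 834 cells), led by Ppbp, Krt19, Krt4 and Krt13, held Id1 at 976 and 255 CPM, 3.82-fold lower (3.56 to 4.10), and Id3 at 354 and 104 CPM, 3.42-fold lower (3.04 to 3.85); 5 of the 37 uninjured cells held 57.8% of those Id1 UMIs. Cluster 6 (79 and 67 cells), led by the cornified layer gene Lce3a and Psca, held Id2 at 558 and 379 CPM, its highest among the epithelial clusters, with Id1 at 81.0 and 38.9 CPM and Id3 at 129 and 48.0 CPM. The clusters with cells of 1 library only or nearly so had Id1 from 82.2 CPM (cluster 0) to 179 CPM (cluster 11) in the uninjured and from 115 CPM (cluster 16) to 249 CPM (cluster 12) in the injured library. Their Id3 ran from 122 to 318 CPM and from 140 to 187 CPM. Cluster 20 had Id1 at 184, Id2 at 87.9 and Id3 at 134 CPM.

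**Figure D4:**
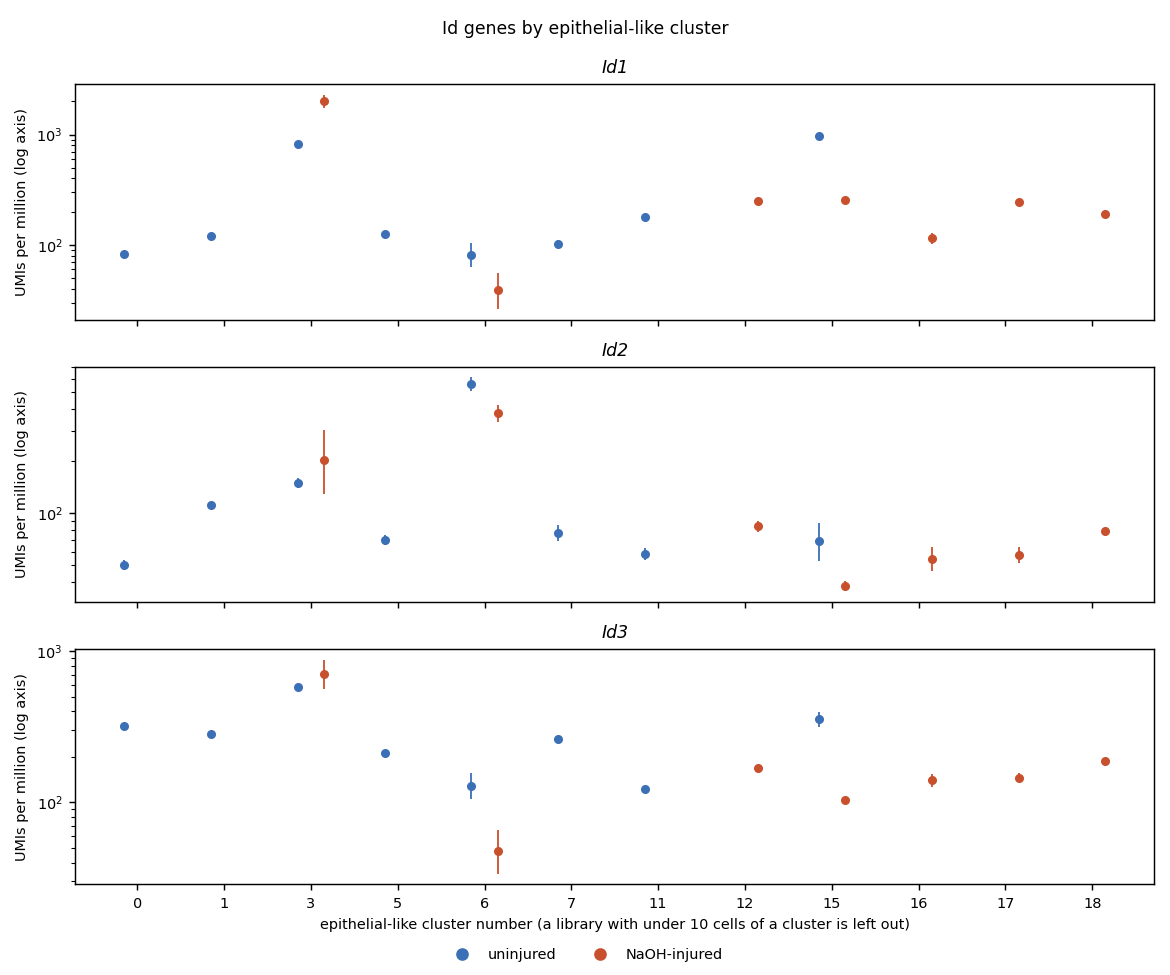
CPM (log axis) of Id1, Id2 and Id3 in each epithelial-like cluster of the uninjured (blue) and injured (red) library, with 95% Poisson intervals. Clusters 3, 6 and 15 have points of both libraries, where Id1 lies higher in the injured cells of cluster 3 (2007 against 814 CPM) and lower in those of clusters 6 and 15.

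Id1 and Id3 shared cells more often than the product of their shares in epithelial and stromal cells of both libraries and injured vascular cells. The injured mural (9 of 83 thinned cells with both) and Schwann cells (6 of 90) also stood above it, on few cells. Values in the uninjured mural (26.3% against 27.1%), injured macrophage (0 against 0.118%) and injured neutrophil cells (0.391% against 0.491%) lay close to the product. They rest on 15 of 57, 0 of 344 and 1 of 256 thinned cells with both, which cannot give a direction. In epithelial cells thinned to 1000 UMIs both were detected in 4.66% of uninjured and 3.78% of injured cells, where the product of the single shares was 2.93% and 2.21%. Stroma gave 31.0% against 25.6% and 19.5% against 16.4%, and the injured vascular cells 19.1% against 13.7%. For Id1 and Id2 the epithelial values were 1.76% against 0.932% uninjured and 1.89% against 1.12% injured, so an excess was not particular to Id1 with Id3. For Id2 and Id3 they were 1.89% against 1.80% uninjured and 1.54% against 0.993% injured. Each class mixes clusters, and these are descriptions within each library.

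Over the 5 BMP lists (68 genes with the members; ligands, receptors, extracellular antagonists, SMADs with their inhibitors, and targets), the vascular cells had 13 of 28 measured genes lower and 1 higher, against 12.9% and 11.0% of all genes measured there, with a median log2 ratio of -0.94 against 0.09. Of 9 measured target genes 7 were lower and 0 higher, median -1.72. The members Id1, Id2, Id3 and Smad6, given above, are among these 7, Smad6 with an interval that includes no difference. The median is the value of Id3. The 28 genes likewise include the 6 measured members, 5 of them lower, so these counts partly repeat the member values. The SMAD list had 4 of 11 lower, among them Smad7 and the corepressors Ski (198 and 95.9 CPM) and Tob1 (184 and 67.3 CPM), and the antagonist Nbl1 had 8 and 22 UMIs (56.7 and 11.04 CPM). The mural cells had 7 of 25 lower and 2 higher, against 11.1% and 15.4% of all genes, median -0.42 against 0.22, and 4 of these 7 were members. Under the same 2 settings 4 and 2 list genes were lower in the mural cells. Tob1 stood there at 278 and 61.5 CPM and the target Msx1 at 58.5 and 25.2 CPM (8 and 16 UMIs, an interval that includes no difference). Bambi, a decoy receptor that is itself a target, stood at 212 and 39.4 CPM, 5.38-fold lower (3.04 to 9.58).

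Stroma had 8 of 47 higher and 6 lower, against 11.1% and 9.96% of all genes, with a median of 0.01 beside 0.01; the extracellular antagonists had 5 of 13 higher and 1 lower, and the ligands 0 of 4 higher and 1 lower. Tnfrsf11b, which encodes osteoprotegerin, stood at 1.94 CPM (5 UMIs) and 60.9 CPM (617 UMIs), of which sub-cluster 11, led by Tnfrsf11b and Stmn2 and with markers nearest to corneal endothelium, held 505, and Tob1 stood at 177 and 85.2 CPM. The epithelium had 14 of 48 higher and 3 lower, against 13.3% and 11.6% of all genes, median 0.36 against -0.01, with 6 of 11 antagonists higher and 0 lower. Smad1, a direct effector of the receptors, stood at 15.4 and 64.9 CPM, 4.21-fold higher (3.94 to 4.49), and Bambi at 19.7 and 52.3 CPM, 2.66-fold higher (2.50 to 2.83). Schwann-like cells had 2 of 20 higher, Fst and Bmp1 (1 and 31 UMIs), against 13.7% of all genes, and macrophages 0 of 8. The E proteins that Id proteins bind were higher for Tcf12 in Schwann-like cells (58.8 and 146 CPM; 4 and 44 UMIs) and Tcf4 in macrophages (66.2 and 144 CPM; 4 and 280 UMIs), with intervals that include no difference, and lower for Tcf4 in mural cells, 424 and 207 CPM, 2.05-fold (1.48 to 2.82).

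**Figure D5:**
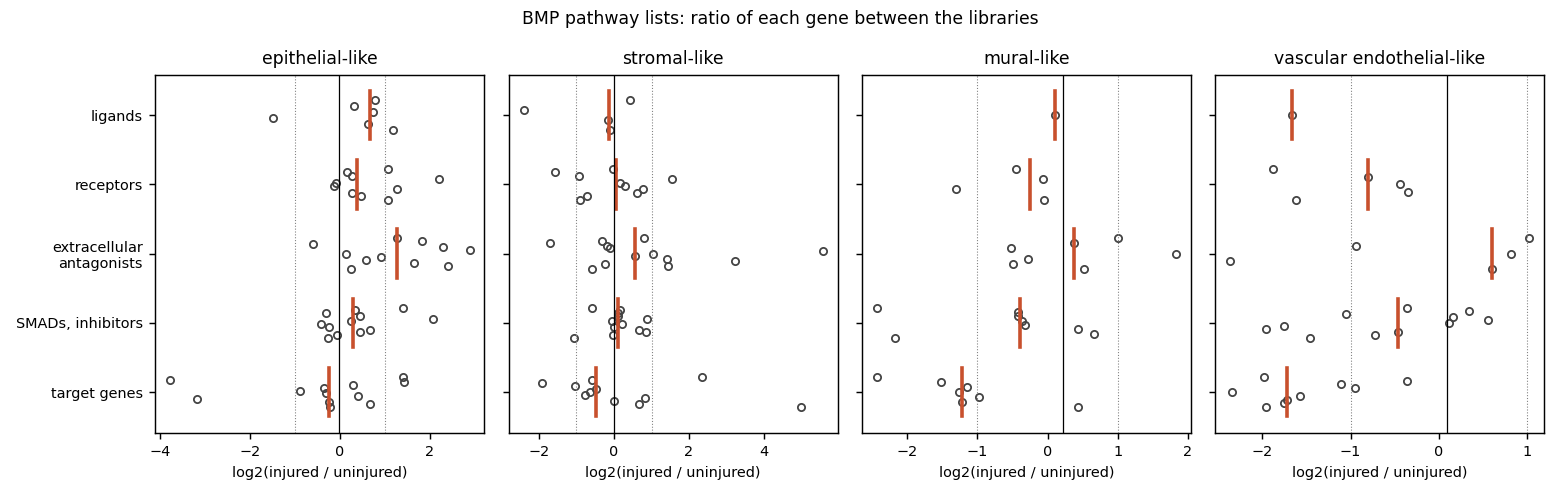
Log2 ratio, injured over uninjured, of every measured gene of the 5 BMP lists (open circles) in 4 cell classes, with list medians in red, the median of all measured genes as the solid line and 2-fold as dotted lines. The lists include the members. Target genes of the vascular endothelial-like cells have a median of -1.72, the value of Id3, and those of the epithelium -0.23.

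Genes with the pattern most like each member were sought over the 13 pairs of class and library with at least 10 cells, among 6303 genes with at least 50 CPM in 1 of them. By Pearson's r of log2(CPM + 1), Id3 was most like Spry4 (0.96), Ecm2 and Runx1t1, Bmp4 like Ramp2 (0.94), Gpm6a and Phactr2, and Id1 like Nfyb (0.89), Rflnb and Yes1. Id2 was most like Gna13 (0.86), H2-Aa and H2-DMb1, Bmpr2 like Snhg1 (0.91), Dlc1 and Ttc28, and Bmp2 like Pfdn4 (0.83), Cbarp and Psma2. The pairs share libraries and differ in depth, and these values describe the pattern only.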

How the data were processed

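The deposited values are UMI counts per gene and cell, which the authors' run of Cell Ranger produced (version 7.0.1 per the file headers) against GRCm38 (per the submitters' processing notes). Neither chemistry nor annotation release is given in the sources used here. Members and gene lists were chosen with earlier results of these data known. A cell was kept with 300 genes or more, 500 UMIs or more and a mitochondrial share up to 20%. Scrublet's own threshold called 0.504% and 0.0666% of cells, too few to rely on, so the 407 and 635 top-scoring cells were removed, assuming 0.8% doublets per 1000 barcodes.

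Both libraries were clustered together with scanpy 1.11.5 (2000 variable genes without the BMP genes, 30 components, 20 neighbours, Leiden resolution 1), and the non-epithelial cells again with 20 components, a step chosen after seeing the data, like the score by which markers named clusters. Counts were summed per class and library. Genes named beside the members are list genes at least 2-fold higher or lower with at least 50 CPM in 1 library, and the 3 genes most like each member. Genes that lead a cluster describe it, and the marker and immediate early genes given beside results come from fixed lists but were picked from them after their values were seen, as were Acvrl1, Eng and Bmpr1a. The ratio script was tested on counts simulated with counting error only, where 97.0% to 99.5% of genes changed 4-fold were recovered. Of unchanged genes, 0.939% passed 2-fold in the epithelial, 1.86% in the stromal and 11.8% in the vascular simulation. The vascular simulation held 7853 genes, without the rule on counts under 3 that left 6139 measured. Gene positions come from GENCODE M21 (GRCm38).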

Additional observations from a re-analysis of the deposited data

Results flagged for a closer look

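Bambi, the decoy receptor, went opposite ways in the epithelium and in the mural cells: its log2 ratio of injured over uninjured was 1.41 in epithelial-like cells (1446 and 3361 UMIs) and -2.43 in mural-like cells (29 and 25 UMIs). The difference between the classes was not tested. Id1 went opposite ways among the epithelial clusters that both libraries share: its log2 ratio was 1.30 in cluster 3, -1.93 in cluster 15 and -1.06 in cluster 6. The injured library had 12 cells in cluster 3 and the uninjured library 37 in cluster 15, and these differences were not tested.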

How the results depend on the processing

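Each of 64 results was recomputed under alternatives, giving 588 values. Of these, 487 were classed as the same, 101 as moved and 0 as reversed. A member ratio was classed as the same anywhere inside its own counting interval, so the same need not mean close. Bmpr2 in macrophages, at -0.10 (-1.70 to 2.20), reached 0.76, and Id1 in Schwann cells, at 0.12 (-1.17 to 1.68), reached 0.74. Counts could not be classed as reversed, so the 0 says nothing about them. Of 34 member ratios 24 had 1 sign in every alternative run, and of the 11 ratios of at least 2-fold 6 stayed there wherever a value was obtained: Bmpr2 and Id1 in mural, Grem1 in stromal, and Id1, Id3 and Smad6 in vascular cells. Grem1 had 2 uninjured UMIs in stroma and a value in 7 alternatives. It had too few UMIs for a value with thinned cells and in sub-cluster 3 alone, where each library held 1 UMI. Its place among the 6 therefore says little about stability. Weighting every cell alike kept its floored ratio by design, so that setting could not move it.

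The counts of members and of BMP list genes past 2-fold moved as follows. The share of all genes past the limit was not computed under these settings. The counts therefore show how the calls moved and cannot be set against all genes. With cells thinned to 1000 UMIs, members lower were 2 in vascular, 2 in mural and 0 in stromal cells, and members higher 1 in epithelium and 0 in stroma; list genes higher were 1 in Schwann, 8 in epithelial, 2 in stromal and 0 in vascular cells, and lower 4 in mural, 3 in stromal and 5 in vascular cells. With every cell weighted alike, members lower were 3 in vascular, 2 in mural and 0 in stromal cells and members higher 1 in epithelium; list genes higher were 2 in vascular and lower 3 in stromal cells. With a limit of 1.5-fold, members higher were 3 in epithelium, and lower 1 each in Schwann, epithelial and macrophage and 2 in stromal cells; list genes higher were 6 in Schwann, 15 in stromal and 3 in vascular cells, and lower 2 in Schwann, 5 in epithelial, 2 in macrophage and 12 in stromal cells. With at least 100 UMIs, list genes higher were 1 in Schwann, 1 in mural and 0 in vascular cells, and lower 1 in epithelial, 2 in mural and 7 in vascular cells. With no UMI minimum, list genes lower were 1 in Schwann, 1 in macrophage and 10 in stromal cells. With median-of-ratios scaling, 1 member was lower in Schwann cells, and list genes were 1 higher in mural, 0 higher in vascular and 1 lower in Schwann cells. Members lower in stroma were 0 with no doublets removed and 0 at clustering resolution 2. List genes higher in mural cells were 1 with no doublets removed and 1 with the stricter cell filter, and in vascular cells 0 with that filter and 0 with the BMP genes among the variable genes. Of the alternatives added after seeing the data, stromal sub-cluster 3 alone gave 0 members and 2 list genes higher, and the vascular cells without lymphatic-marker cells 0 list genes higher. Thinning and the UMI minimum leave fewer genes measured; for the other settings the cause was not tested.

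No paired analysis was possible because each group is 1 library. The uninjured vascular (40 cells), macrophage (18), Schwann (53) and mural (60) classes limit what can be seen: a count of 0 in the uninjured vascular cells has an upper 95% limit of 26.1 CPM. Class and library makeup cannot be told apart where a class lies in different clusters.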
